A study of Mus musculus with 6 samples.

Results

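CAF-1 OFF was compared with HOXA9 OFF by single-cell RNA-seq at 96 h, the last time point of a 6-library series from 1 mouse culture system. Cells were chosen by library and by quality: barcodes with 200 to 6000 genes and at most 10% of their UMIs (unique molecular identifiers, each counting 1 captured transcript) in mitochondrially encoded genes. This kept 911 of 1066 barcodes of the CAF-1 OFF library and 1510 of 1513 of the HOXA9 OFF library, in all 2421 of the 5872 cells kept over the series. The cells were granulocyte-macrophage progenitors labelled as Lys-GFP-ER-HoxA9 cells of strain C57BI/6. They were immortalized (iGMPs) by HOXA9 fused to the hormone-binding domain of the estrogen receptor and held in culture with 150 ng/ml β-estradiol and stem cell factor (SCF). In the CAF-1 OFF arm, 500 µM IPTG was added for 96 h to induce an shRNA against Chaf1b, with estradiol kept, so that HOXA9 stayed active. In the HOXA9 OFF arm, a control clone (shCTRL) was washed and cultured without estradiol for 96 h. Whether that arm received IPTG is not given in the sources used here. Each arm is 1 clone, each group is 1 library of sorted live cells, and the 0 h library of each arm was kept in estradiol. With 1 library a side there is no replicate check, so no p-value was computed and differences are described by size.

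CAF-1 is a histone chaperone complex that places newly made H3 and H4 onto DNA behind the replication fork. CHAF1B is one of its subunits, and CHAF1A is the subunit that binds PCNA. Neutrophils form in an ordered series: promyelocytes make the primary (azurophil) granule proteins, myelocytes and metamyelocytes make the secondary and tertiary granule proteins after primary granule genes have been shut off, and late cells leave the cell cycle and fill with S100A8 and S100A9. HOXA9 is a homeodomain factor that holds myeloid progenitors in self-renewal, and switching it off lets such cells mature. The comparison therefore sets cells that lose a chromatin assembly factor while HOXA9 stays on against cells that mature after HOXA9 loss.

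The libraries held 5394352 UMIs (CAF-1 OFF) and 3524285 UMIs (HOXA9 OFF), with a median of 5956 and 2043.5 UMIs per cell and a median of 2006 and 785.5 genes per cell. With every cell thinned to 1000 UMIs, the gap narrowed to a median of 593 genes in CAF-1 OFF (905 cells) and 470 in HOXA9 OFF (1474 cells), against 603 and 598 in the 0 h libraries of the arms. The 10 most abundant genes took 8.21% of UMIs in CAF-1 OFF versus 26.1% in HOXA9 OFF. The mitochondrial limit removed 14.5% of barcodes of CAF-1 OFF and 0.198% of HOXA9 OFF at 96 h, and 41.7% and 66.2% at 0 h. The 96 h libraries shared 1 barcode sequence. Doublets were not removed, and Scrublet called 9 CAF-1 OFF and 6 HOXA9 OFF cells in an alternative. Genes of liver, pancreas, heart, skin, lung, kidney and nerve used as a control list summed to 0 and 1.13 CPM (UMIs scaled to a library total of 1e6).

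The targeted gene was sparse. Chaf1b stood at 35.6, 3.22 and 6.49 CPM in CAF-1 OFF at 0, 48 and 96 h, against 51.5, 15.3 and 1.13 CPM in HOXA9 OFF. Both arms fell from their 0 h library, with log2 changes of -1.47 and -2.47 (10 CPM added to both values). At 96 h the level of Chaf1b was 5.72-fold higher in CAF-1 OFF (35 against 4 UMIs, exact 95% interval 2.04 to 22.1), the arm with the knockdown. Chaf1a had 124 UMIs in CAF-1 OFF versus 0 in HOXA9 OFF. Its level was at least 27.0-fold higher in CAF-1 OFF, with the empty library set to a floor of 3 counts. Hoxa9 stood at 23.4 CPM in CAF-1 OFF, against 53.3 CPM in HOXA9 OFF, 2.28-fold higher (1.81 to 2.89) in the latter by CPM and the other way round in UMIs per cell. The fused protein is switched by estradiol and not by its transcript, so that level checks no label. Folds here and below are ratios of CPM with nothing added, and their intervals cover counting error only. A fold given as at least is the ratio at the floor of 3 counts and not the limit of an interval.

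To ask where the arms parted, 4789 genes were taken whose level averaged at least 20 CPM across the 6 libraries, and 43 were set aside because the 0 h libraries of the arms already lay at least 2-fold apart. Of the 4746 genes left, 1796 (37.8%) were at least 2-fold higher in CAF-1 OFF, 737 (15.5%) lay at least 2-fold higher in HOXA9 OFF and 2213 (46.6%) lay within 2-fold. The median log2 ratio of CAF-1 OFF over HOXA9 OFF was 0.52, with the 10th percentile at -1.43 and the 90th at 2.24. The genes past 2-fold were thus more often higher in CAF-1 OFF (70.9%), but the most extreme ratios lay on the other side. At least 32-fold higher were 12 genes in CAF-1 OFF, 31 in HOXA9 OFF. The split depended on the scaling: 54.7% of the genes past 2-fold were higher in CAF-1 OFF with TMM factors, 51.1% with median-of-ratios factors, 81.9% when mitochondrially encoded and ribosomal protein genes were left out of the total, and 94.9% in UMIs per cell. These scalings moved the median log2 ratio of all genes by -0.35, -0.42, 0.30 and 0.98.

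**Figure D1:**
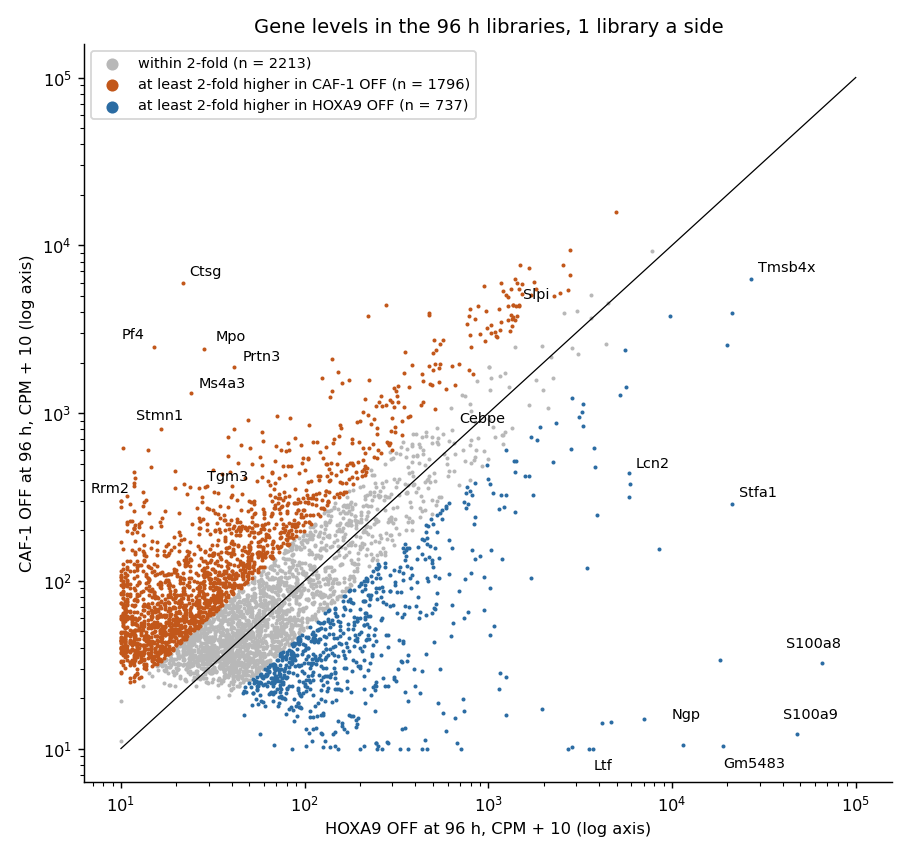
Level of each of the 4746 compared genes in HOXA9 OFF (x axis) and CAF-1 OFF (y axis) at 96 h, in CPM plus 10 on log axes; each point is 1 gene from 1 library a side. The 1796 genes higher in CAF-1 OFF form a broad band above the diagonal, while the points farthest from it are the S100, stefin A and late granule genes along the right side, at up to 65260 CPM for S100a8.

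By CPM, most of the difference lay in the HOXA9 OFF arm's own course. At 0, 48 and 96 h, the 1796 genes higher in CAF-1 OFF took 64.0%, 62.0% and 60.6% of that arm's UMIs, and 63.4%, 45.8% and 15.1% of those of HOXA9 OFF. The 737 genes higher in HOXA9 OFF took 5.27%, 20.1% and 54.0% of its UMIs, and 5.19%, 6.07% and 6.98% of those of CAF-1 OFF. By gene, 1601 of the 1796 (89.1%) stayed within 2-fold of their 0 h level in CAF-1 OFF and fell at least 2-fold in HOXA9 OFF. Over all genes compared, 38.6% took that course. Of the 737, 575 (78.0%) stayed within 2-fold in CAF-1 OFF and rose in HOXA9 OFF, and 94 (12.8%) rose in both arms. Over all genes compared, these shares were 14.8% and 3.22%. In CAF-1 OFF, 66 of the 1796 genes (3.67%) rose, among them Pf4, Ms4a3 and Slpi described below. Of all 4746 genes compared, 3.22% rose in both arms. A further 1.14% rose in CAF-1 OFF and stayed within 2-fold in HOXA9 OFF, and 0.506% rose in CAF-1 OFF and fell in HOXA9 OFF. Rises in CAF-1 OFF were thus not more frequent among the 1796 than among all genes. These counts were taken by CPM. They use the same 96 h libraries that placed the genes, and describe them.

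Primary granule genes had the highest median log2 ratio of the lists (3.76). Of 11 genes listed, 10 could be compared and Elane was set aside. At least 2-fold higher in CAF-1 OFF were 7 (against 37.8% of all genes) and 1 was higher in HOXA9 OFF, and the other scalings gave 7 or 8 higher in CAF-1 OFF. The list as a whole made up 1.63% of UMIs in CAF-1 OFF versus 0.113% in HOXA9 OFF. Ctsg, cathepsin G, stood at 3472, 4131 and 5951 CPM in CAF-1 OFF at 0, 48 and 96 h, against 3309, 833 and 11.6 CPM in HOXA9 OFF. The arms began together and ended 512-fold apart (377 to 713), a log2 ratio of 8.11 that was the highest among the genes compared. Mpo, myeloperoxidase, stood at 1451, 1928 and 2415 CPM in CAF-1 OFF, against 978, 890 and 18.4 CPM in HOXA9 OFF, 131-fold higher (103 to 170) in CAF-1 OFF at 96 h. Prtn3, proteinase 3, reached 1874 CPM in CAF-1 OFF versus 31.2 CPM in HOXA9 OFF, after 2088 CPM in HOXA9 OFF at 48 h. Its HOXA9 OFF level had thus not yet dropped at 48 h, when that of Ctsg had. Ms4a3, a membrane protein of granulocyte-monocyte progenitors, stood at 115, 371 and 1302 CPM in CAF-1 OFF, against 64.9, 934 and 14.2 CPM in HOXA9 OFF. It was high in HOXA9 OFF at 48 h and nearly gone at 96 h, while in CAF-1 OFF it was still higher at 96 h than at 48 h.

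Elane, neutrophil elastase, stood at 129, 913 and 1386 CPM in CAF-1 OFF, against 48.2, 512 and 3.69 CPM in HOXA9 OFF. Its course was like that of Ms4a3, but the 0 h levels differed, so it entered no count. Not every gene of the list followed. Ctsc, the cathepsin that activates the granule proteases, was 3.41-fold higher (3.06 to 3.81) in HOXA9 OFF, at 300 against 87.9 CPM. Fcnb, ficolin B, stood at 69.9 CPM in CAF-1 OFF versus 114 CPM in HOXA9 OFF, within 2-fold. The residue of these transcripts in HOXA9 OFF sat in few cells: the 41 UMIs of Ctsg came from 5 of 1510 cells, 28 of them from 1 cell, and the 65 UMIs of Mpo came from 6 cells, 53 of them from 1.

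Secondary and tertiary granule genes went the other way. Of 14 genes listed, 12 could be compared, and all 12 lay at least 2-fold higher in HOXA9 OFF (against 15.5% of all genes), under each CPM-based scaling tried. In UMIs per cell, 10 of the list could be compared and 9 were higher in HOXA9 OFF. Their summed share of UMIs was 0.148% in CAF-1 OFF versus 4.15% in HOXA9 OFF. Ltf, lactoferrin, had 0 UMIs in each of the CAF-1 OFF libraries, while its level in HOXA9 OFF was 0, 143 and 3720 CPM at 0, 48 and 96 h. The 96 h level was at least 6688-fold higher in HOXA9 OFF. Ngp, neutrophilic granule protein, had 3 UMIs in CAF-1 OFF at 96 h and stood at 0, 2275 and 11396 CPM in HOXA9 OFF. Camp, the cathelicidin precursor, stood at 4.26 CPM in CAF-1 OFF versus 4165 CPM in HOXA9 OFF, 977-fold higher (651 to 1541) in the latter. These 3 late granule genes thus stayed near 0 in CAF-1 OFF through 96 h.

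Within the same list, several genes did rise in CAF-1 OFF, to lower levels. Lcn2, lipocalin 2, an iron-siderophore binding protein, stood at 8.78, 117 and 428 CPM in CAF-1 OFF, against 23.1, 1269 and 5813 CPM in HOXA9 OFF. It rose 48.8-fold from 0 h in CAF-1 OFF and was still 13.6-fold lower (12.998 to 14.2) than in HOXA9 OFF. Chil3, a chitinase-like lectin, stood at 2.37, 157 and 144 CPM in CAF-1 OFF, against 0, 4897 and 8446 CPM in HOXA9 OFF. Mmp8, the neutrophil collagenase, stood at 24.2, 582 and 724 CPM in CAF-1 OFF, against 4.53, 122 and 4692 CPM in HOXA9 OFF, and was set aside for its 0 h difference. At 48 h Mmp8 was the higher in CAF-1 OFF, and at 96 h in HOXA9 OFF. Ltb4r1, a leukotriene B4 receptor, showed the smallest gap of the 12, 113 against 352 CPM, 3.13-fold (2.84 to 3.46).

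Among the 250 bases before the transcript start (RefSeq, GRCm38.p6), letters typical of C/EBP, PU.1, ETS and GATA sites were looked up on both strands for genes of the opposed groups. Printed are the windows of Ctsg and Mpo (primary granule), Pf4 (a platelet gene described below), S100a9, S100a8 and Ngp, chosen as those with the highest and lowest log2 ratios of the genes compared, near-identical copies left out. They read 5′ to 3′ on the strand of the gene, minus for Ctsg and S100a9 and plus for the rest, and capitals mark matches on either strand.
Ctsg, chr14:56102575-56102824: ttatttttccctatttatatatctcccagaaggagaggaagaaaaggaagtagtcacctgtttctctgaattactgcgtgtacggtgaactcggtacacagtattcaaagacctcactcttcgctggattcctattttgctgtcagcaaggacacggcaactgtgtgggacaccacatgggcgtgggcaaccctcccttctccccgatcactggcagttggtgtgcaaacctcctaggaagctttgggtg
Mpo, chr11:87793534-87793783: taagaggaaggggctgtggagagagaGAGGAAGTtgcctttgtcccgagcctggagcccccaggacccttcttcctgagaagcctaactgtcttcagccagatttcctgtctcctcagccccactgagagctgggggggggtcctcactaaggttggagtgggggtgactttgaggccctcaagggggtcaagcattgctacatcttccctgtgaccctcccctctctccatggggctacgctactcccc
Pf4, chr5:90772185-90772434: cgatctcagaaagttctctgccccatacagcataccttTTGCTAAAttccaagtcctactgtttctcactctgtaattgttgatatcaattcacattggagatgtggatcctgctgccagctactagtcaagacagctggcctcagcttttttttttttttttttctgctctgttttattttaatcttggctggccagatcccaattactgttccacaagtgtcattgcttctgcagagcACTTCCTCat
S100a9, chr3:90695722-90695971: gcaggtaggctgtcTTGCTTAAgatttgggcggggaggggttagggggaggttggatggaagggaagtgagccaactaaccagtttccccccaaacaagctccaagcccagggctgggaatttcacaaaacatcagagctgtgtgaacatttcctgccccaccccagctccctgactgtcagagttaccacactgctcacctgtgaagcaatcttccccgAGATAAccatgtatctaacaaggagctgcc
S100a8, chr3:90668821-90669070: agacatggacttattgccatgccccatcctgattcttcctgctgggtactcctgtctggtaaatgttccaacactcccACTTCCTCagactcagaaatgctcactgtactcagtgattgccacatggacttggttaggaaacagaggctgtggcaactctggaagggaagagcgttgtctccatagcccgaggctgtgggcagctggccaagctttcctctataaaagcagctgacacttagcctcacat
Ngp, chr9:110419558-110419807: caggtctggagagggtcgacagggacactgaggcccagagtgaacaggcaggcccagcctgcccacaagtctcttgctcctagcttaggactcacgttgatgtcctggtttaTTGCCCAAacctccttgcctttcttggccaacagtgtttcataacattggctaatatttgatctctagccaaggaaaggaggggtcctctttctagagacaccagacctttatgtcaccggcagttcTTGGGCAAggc
The Ctsg window held 0 matches. The Mpo window held GAGGAAGT (PU.1-type) at bases 27 to 34, counted from the 5′ end. The S100a8 window held it at bases 79 to 86, on the other strand. The S100a9 window held TTGCNNAA at bases 15 to 22 and the GATA-type letters AGATAA at bases 221 to 226. The Ngp window held TTGCNNAA (C/EBP-type) at bases 113 to 120 and 240 to 247, and the Pf4 window held TTGCNNAA at bases 39 to 46 and GAGGAAGT at bases 241 to 248. Among 27025 promoters, 9.55% held TTGCNNAA, 2.44% GAGGAAGT, 2.93% CCGGAAGT (ETS-type, which shares its last 6 letters with GAGGAAGT) and 10.3% AGATAA. Among the 3830 genes compared that had a window, these shares were 8.12%, 2.85%, 7.57% and 5.59%. Windows were at hand for 10 of 11 primary and 12 of 14 secondary and tertiary granule genes. Of the primary granule promoters, 1 of 10 held TTGCNNAA, 4 held GAGGAAGT and 0 held either of the other motifs. Of secondary and tertiary granule promoters, 4 of 12 held TTGCNNAA, 2 held GAGGAAGT, 3 held AGATAA and 0 held CCGGAAGT. Such a match is a description of the sequence, not a bound site.

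S100 and stefin A genes gave some of the widest gaps. S100a8 (chr3:90669071-90670034) and S100a9 (chr3:90692630-90695721) encode the calcium-binding subunits of calprotectin. S100a8 stood at 0, 14.3 and 22.4 CPM in CAF-1 OFF, against 0.239, 4001 and 65260 CPM in HOXA9 OFF, 2909-fold higher (2435 to 3506) in the latter at 96 h. S100a9 stood at 0, 1.07 and 2.22 CPM in CAF-1 OFF, against 0, 1815 and 48173 CPM in HOXA9 OFF. Its log2 ratio of -11.94 was the lowest of all genes compared. Of 7 S100 genes compared, 4 were higher in HOXA9 OFF (against 15.5% of all genes) and 1 in CAF-1 OFF (against 37.8%). S100a6 (236 against 3905 CPM) and S100a11 (307 against 5802 CPM) were the other 2 of the 4. S100a1 went against the rest, at 191 CPM in CAF-1 OFF versus 22.7 CPM in HOXA9 OFF, 8.41-fold higher (6.70 to 10.7) in CAF-1 OFF. The S100 list took 0.114% of UMIs in CAF-1 OFF versus 12.3% in HOXA9 OFF.

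The stefin A genes encode cysteine protease inhibitors, and in mice they form a cluster of close copies on chromosome 16. Of 9 genes of the list, cystatins included, 8 lay at least 2-fold higher in HOXA9 OFF (against 15.5% of all genes). Cst3 lay within 2-fold (806 against 1333 CPM). Stfa1 stood at 0.237, 31.3 and 277 CPM in CAF-1 OFF, against 1.67, 5353 and 21162 CPM in HOXA9 OFF. It was 76.5-fold lower (72.7 to 80.6) in CAF-1 OFF than in HOXA9 OFF at 96 h, yet had risen past its own 0 h level. Neither Stfa2 nor Stfa2l1 had a UMI in CAF-1 OFF (0 and 0), while HOXA9 OFF held 2700 CPM of Stfa2, at least 4856-fold more, and 3544 CPM of Stfa2l1, at least 6372-fold more. Gm5483 had 2 UMIs in CAF-1 OFF and stood at 18899 CPM in HOXA9 OFF, while BC100530 stood at 23.9 and 18154 CPM. How reads were split between such near-identical copies cannot be seen in the counts, so single members are uncertain. The list as a whole was 52.0-fold higher in HOXA9 OFF, at 6.96% against 0.134% of UMIs. Retnlg, a resistin-like secreted protein, stood at 5.01 CPM in CAF-1 OFF versus 7070 CPM in HOXA9 OFF, after 4.33 CPM at 48 h, so most of its rise fell in the second 48 h.

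Surface and killing machinery of neutrophils followed the late granule genes. Of 22 surface and chemotaxis genes, 19 could be compared. At least 2-fold higher in HOXA9 OFF were 16 (against 15.5% of all genes), and 0 in CAF-1 OFF (against 37.8%). In UMIs per cell, 7 of 15 were higher in HOXA9 OFF and 1 in CAF-1 OFF. Ly6g, a surface marker of mouse neutrophils, had 0 UMIs in CAF-1 OFF at 96 h, while HOXA9 OFF held 456 CPM, at least 820-fold more. C5ar1, the receptor of complement C5a, stood at 13.7 and 388 CPM, and Cxcr2, a receptor for neutrophil-attracting chemokines, at 5.75 and 164 CPM. Csf3r, the G-CSF receptor, stood at 20.02 CPM in CAF-1 OFF versus 158 CPM in HOXA9 OFF, 7.91-fold higher (6.43 to 9.81) in the latter. Itgam, the CD11b integrin chain, stood at 0.712, 2.86 and 12.4 CPM in CAF-1 OFF, against 1.19, 130 and 231 CPM in HOXA9 OFF. Of 7 NADPH oxidase genes, which make the oxidative burst, 6 were higher in HOXA9 OFF by CPM (against 15.5% of all genes). In UMIs per cell, 2 were. Cybb, the catalytic chain, stood at 5.19 CPM in CAF-1 OFF versus 646 CPM in HOXA9 OFF, 124-fold higher (85.8 to 188) in the latter, whereas its partner Cyba differed 3.96-fold (825 against 3266 CPM).

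Progenitor genes were held in CAF-1 OFF and lost in HOXA9 OFF. Of 18 genes listed, 11 could be compared, and 9 were at least 2-fold higher in CAF-1 OFF (against 37.8% of all genes), 0 in HOXA9 OFF. With TMM factors these counts were 7 and 1 of 10. Cd34, a surface sialomucin of stem and progenitor cells, stood at 756, 738 and 707 CPM in CAF-1 OFF, against 660, 67.2 and 28.4 CPM in HOXA9 OFF. It was 24.9-fold higher (20.4 to 30.7) in CAF-1 OFF at 96 h, and its drop in HOXA9 OFF had come by 48 h. Kit, the receptor of SCF, stood at 82.8, 73.9 and 55.6 CPM in CAF-1 OFF, against 80.9, 9.98 and 1.13 CPM in HOXA9 OFF. Flt3, another cytokine receptor of early progenitors, stood at 63.0 CPM in CAF-1 OFF versus 3.97 CPM in HOXA9 OFF. Myb, a transcription factor of progenitors, stood at 261 and 19.6 CPM, 13.3-fold apart (10.5 to 17.2). Lmo2, a bridging factor of stem cell transcription complexes, lay within 2-fold at 330 and 216 CPM.

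Some platelet genes ended higher in CAF-1 OFF. Pf4 (chr5:90772435-90773383), the platelet chemokine CXCL4, stood at 22.3, 412 and 2481 CPM in CAF-1 OFF, against 10.0, 2.07 and 5.11 CPM in HOXA9 OFF. It rose 111-fold in CAF-1 OFF from 0 h and was 486-fold higher (307 to 820) there than in HOXA9 OFF at 96 h. Gp9, a chain of the platelet receptor for von Willebrand factor, stood at 19.5, 73.4 and 132 CPM in CAF-1 OFF, against 18.6, 43.5 and 3.40 CPM in HOXA9 OFF. Itga2b, the platelet integrin αIIb chain, stood at 3.56, 13.8 and 73.0 CPM in CAF-1 OFF, against 5.97, 28.1 and 5.11 CPM in HOXA9 OFF. At 48 h Itga2b was the higher in HOXA9 OFF, and at 96 h in CAF-1 OFF. The rest of the megakaryocyte list was low or shared: of 20 genes, 7 could be compared, 3 were higher in CAF-1 OFF (against 37.8% of all genes), and Cd9, a tetraspanin, was higher in HOXA9 OFF (98.4 against 375 CPM). Plek, pleckstrin of platelets and leukocytes, stood at 95.5 and 170 CPM, within 2-fold. With TMM factors, 3 were higher in each arm. Next to Pf4, Cxcl3 (chr5:90786101-90788093), a chemokine for neutrophils, stood at 104 and 1.70 CPM, 61.1-fold higher (27.9 to 167) in CAF-1 OFF. Its neighbours Cxcl5 and Cxcl15 had 0 and 1 UMIs in CAF-1 OFF, with 0 in HOXA9 OFF. Ppbp, which lies between Cxcl5 and Pf4, had 54 UMIs in CAF-1 OFF versus 13 in HOXA9 OFF, below the minimum level.

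Of 18 erythroid genes, 2 could be compared, and both were higher in CAF-1 OFF (against 37.8% of all genes). Car2, carbonic anhydrase 2, stood at 96.8, 220 and 288 CPM in CAF-1 OFF, against 83.1, 12.6 and 0 CPM in HOXA9 OFF, and was at least 338-fold higher in CAF-1 OFF at 96 h. Tfrc, the transferrin receptor, stood at 56.0 and 5.67 CPM. Gata1, a defining erythroid gene, was low, at 12.4 CPM in CAF-1 OFF versus 6.53 CPM in HOXA9 OFF. The erythroid list as a whole summed to 457 CPM in CAF-1 OFF versus 17.9 CPM in HOXA9 OFF. Car2 alone gave 288 of the 457 CPM, and all listed genes but Car2 and Tfrc fell below the minimum of 20 CPM. Of 16 mast cell and basophil genes, 2 could be compared and 3 were set aside, since the 0 h libraries differed. The rest of that list did not reach the minimum level. Cpa3, mast cell carboxypeptidase, stood at 209, 1035 and 2813 CPM in CAF-1 OFF, against 491, 384 and 10.2 CPM in HOXA9 OFF. Mcpt8, a basophil protease, stood at 40.1, 373 and 1159 CPM in CAF-1 OFF, against 164, 17.5 and 0 CPM in HOXA9 OFF. Both rose in CAF-1 OFF from the lower 0 h level and fell in HOXA9 OFF from the higher one. Fcer1g, a receptor chain shared by myeloid cells, was higher in HOXA9 OFF (943 against 3105 CPM). Prg2, eosinophil major basic protein, was set aside too, and stood at 879 CPM in CAF-1 OFF versus 3021 CPM in HOXA9 OFF, after 16629 CPM in HOXA9 OFF at 48 h. Nkg7, a granule protein of cytotoxic lymphocytes, stood at 52.4, 159 and 290 CPM in CAF-1 OFF, against 59.7, 17.9 and 0 CPM in HOXA9 OFF, and was at least 340-fold higher in CAF-1 OFF. Lymphoid genes as a list were split. Among 4 compared, Nkg7 included, 2 were higher in CAF-1 OFF (against 37.8% of all genes) and 2 in HOXA9 OFF (against 15.5%). Of 10 monocyte genes compared, 7 were higher in HOXA9 OFF (against 15.5% of all genes) and 1 in CAF-1 OFF by CPM, but 3 and 2 of 6 were in UMIs per cell. The widest gap was that of Ctss, cathepsin S (6.30 against 554 CPM). Ccr2, a chemokine receptor of monocytes, was higher in CAF-1 OFF (201 against 69.0 CPM), having fallen from 0 h in both arms.

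**Figure D2:**
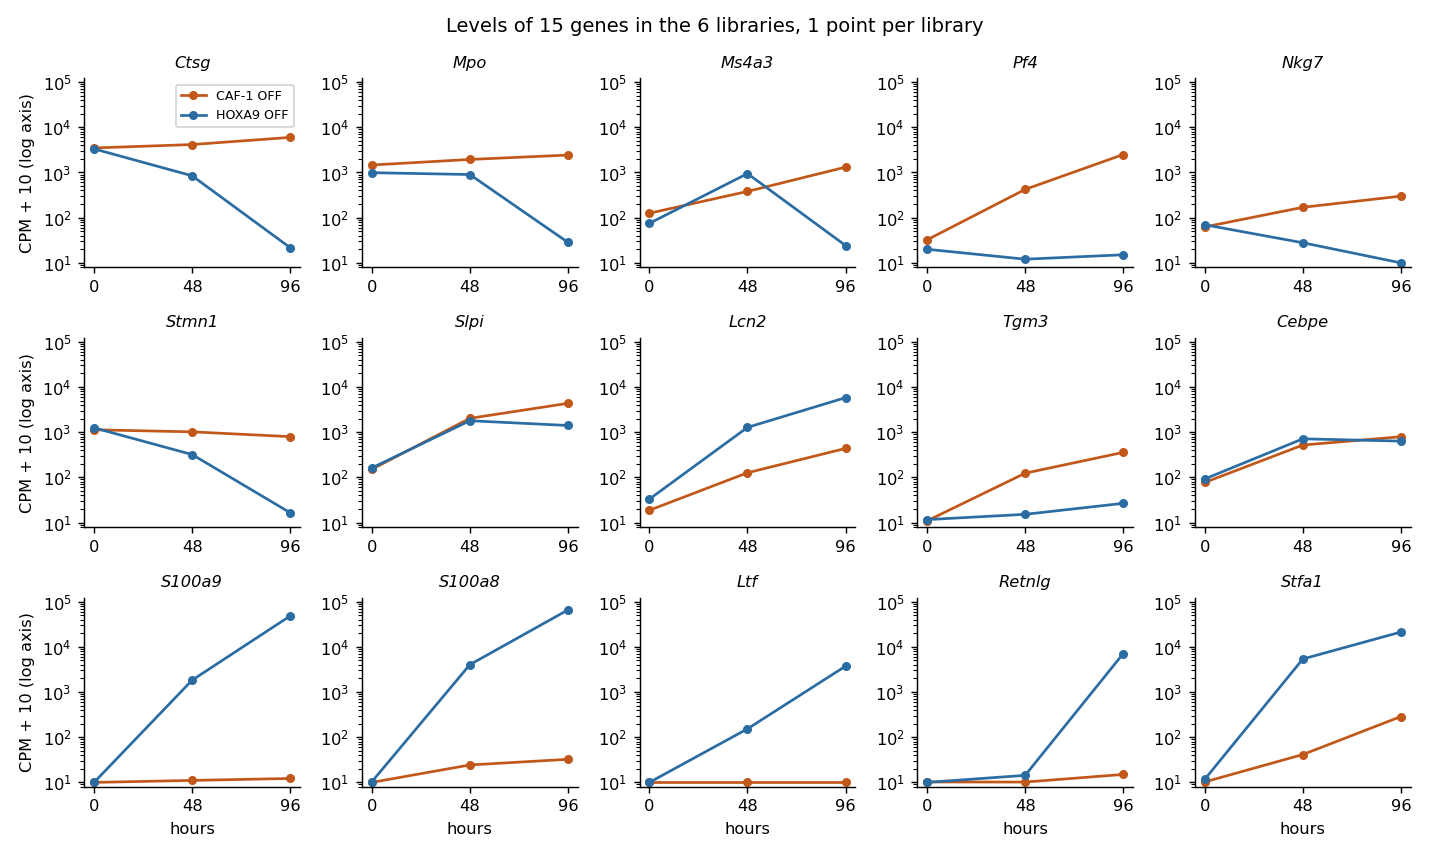
Level of 15 genes in either arm (CAF-1 OFF, HOXA9 OFF) at 0, 48 and 96 h, in CPM plus 10 on a log axis; each point is 1 library. Ctsg and Mpo rise by less than 2-fold in CAF-1 OFF and drop in HOXA9 OFF, where Stmn1 also drops. Pf4 climbs in CAF-1 OFF to 2481 CPM, and S100a8, S100a9, Ltf and Retnlg climb in HOXA9 OFF.

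Cells of the CAF-1 OFF library still carried cell cycle transcripts. Of 25 replication genes, 24 could be compared, and 24 were higher in CAF-1 OFF (against 37.8% of all genes). Their median log2 ratio was 3.12, against 0.52 over all genes compared. With TMM factors the count was 22 of 24. Of 22 mitosis genes compared, 22 were higher in CAF-1 OFF (against 37.8% of all genes, median 2.84), and 20 of 21 with TMM factors. Against the 0 h library of the same arm, the median of the replication list was -0.41 for CAF-1 OFF and -3.26 for HOXA9 OFF, and that of the mitosis list 0.08 and -2.66. Rrm2, a subunit of ribonucleotide reductase, stood at 283, 409 and 359 CPM in CAF-1 OFF, against 232, 76.3 and 1.70 CPM in HOXA9 OFF. Cdk1, the mitotic kinase, stood at 209 CPM in CAF-1 OFF and had 3 UMIs in HOXA9 OFF, 246-fold higher (84.0 to 1195) in CAF-1 OFF. Stmn1, stathmin, which takes apart microtubules, stood at 788 and 6.53 CPM, 121-fold apart (80.4 to 191). Cks2, a Cdk-binding subunit, showed the smallest ratio of the mitosis list, 481 against 174 CPM. Brakes on the cycle were mixed: Btg1, an antiproliferative factor, was 14.5-fold lower (12.7 to 16.4) in CAF-1 OFF at 50.1 against 723 CPM, while Cdkn2a, the INK4A and ARF locus, stood at 632 and 278 CPM.

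Chromatin genes followed the same side. Of 17 CAF-1 subunits and other histone chaperones compared, 12 were higher in CAF-1 OFF (against 37.8% of all genes), 0 in HOXA9 OFF by CPM, and 9 and 1 with TMM factors. Asf1b, which hands H3 and H4 to CAF-1, stood at 89.7, 120 and 144 CPM in CAF-1 OFF, against 80.7, 54.6 and 2.55 CPM in HOXA9 OFF. Atrx, a remodeller that acts with the H3.3 chaperone DAXX, lay within 2-fold at 59.9 and 57.0 CPM. Of 8 histone variant genes compared, 6 were higher in CAF-1 OFF (against 37.8% of all genes), 0 in HOXA9 OFF, with 6 and 1 under TMM factors. The H3.3 genes parted from each other. H3f3b stood at 1948, 5791 and 5956 CPM in CAF-1 OFF, against 1746, 1395 and 1415 CPM in HOXA9 OFF, 4.21-fold higher (4.08 to 4.34) in CAF-1 OFF at 96 h. H3f3a, which encodes the same protein, stood at 2444 and 2847 CPM at 96 h, within 2-fold. H3f3b rose in CAF-1 OFF (3.06-fold from 0 h) and stayed within 2-fold of its 0 h level in HOXA9 OFF. H2afz, which encodes H2A.Z, took another course, at 4180, 4611 and 4156 CPM in CAF-1 OFF, against 4338, 2091 and 787 CPM in HOXA9 OFF. Cenpa, the centromeric H3, stood at 547 and 28.1 CPM. Ezh2, the Polycomb methyltransferase, stood at 78.2 and 1.99 CPM, and of 15 genes for DNA methylation, heterochromatin and Polycomb compared, 10 were higher in CAF-1 OFF (against 37.8% of all genes), 0 in HOXA9 OFF (8 and 1 with TMM factors). Of 7 nuclear envelope genes compared, 3 were higher in CAF-1 OFF (against 37.8% of all genes) and 2 in HOXA9 OFF (against 15.5%). Replication-dependent histone transcripts lack a poly(A) tail and are poorly caught by this assay, and were not listed.

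Growth genes were lower in HOXA9 OFF across several machines. Of 18 nucleolar and Myc-programme genes compared, 18 were higher in CAF-1 OFF by CPM (against 37.8% of all genes) and 17 with TMM factors. Against the 0 h library of the same arm, their median log2 change was -0.61 for CAF-1 OFF and -3.44 for HOXA9 OFF. Myc itself stood at 102, 89.99 and 95.1 CPM in CAF-1 OFF, against 94.7, 10.4 and 0.567 CPM (2 UMIs) in HOXA9 OFF. Ncl, nucleolin, stood at 596 and 64.1 CPM, and Srm, spermidine synthase, at 251 and 1.70 CPM. Cytosolic ribosomal protein genes took 26.5% of UMIs in CAF-1 OFF versus 8.86% in HOXA9 OFF. Of 82 compared, 70 were higher in CAF-1 OFF (against 37.8% of all genes), and 51 to 82 over the other scalings. Of 20 respiratory chain and matrix genes, 14 were higher in CAF-1 OFF (against 37.8% of all genes), and 10 to 20 over the other scalings. Mitochondrially encoded genes took 5.82% and 2.29% of UMIs. Glycolysis genes lay near the shares of all genes: 4 of 12 were higher in CAF-1 OFF (against 37.8%) and 2 in HOXA9 OFF (against 15.5%). Ldha was higher in CAF-1 OFF (497 against 170 CPM). Pkm was higher in HOXA9 OFF, at 1231 CPM against 590 CPM, an order that turned in UMIs per cell. Actin genes lay the other way from the growth genes. Of 20 compared, 13 were higher in HOXA9 OFF (against 15.5% of all genes) and 0 in CAF-1 OFF (against 37.8%). In UMIs per cell these counts were 4 and 2. Tmsb4x, which binds actin monomers, stood at 2574, 4172 and 6283 CPM in CAF-1 OFF, against 2223, 17524 and 26787 CPM in HOXA9 OFF. It rose in both arms from 0 h and was 4.26-fold higher (4.21 to 4.32) in HOXA9 OFF at 96 h. Actb stood at 1411 and 5599 CPM.

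**Figure D3:**
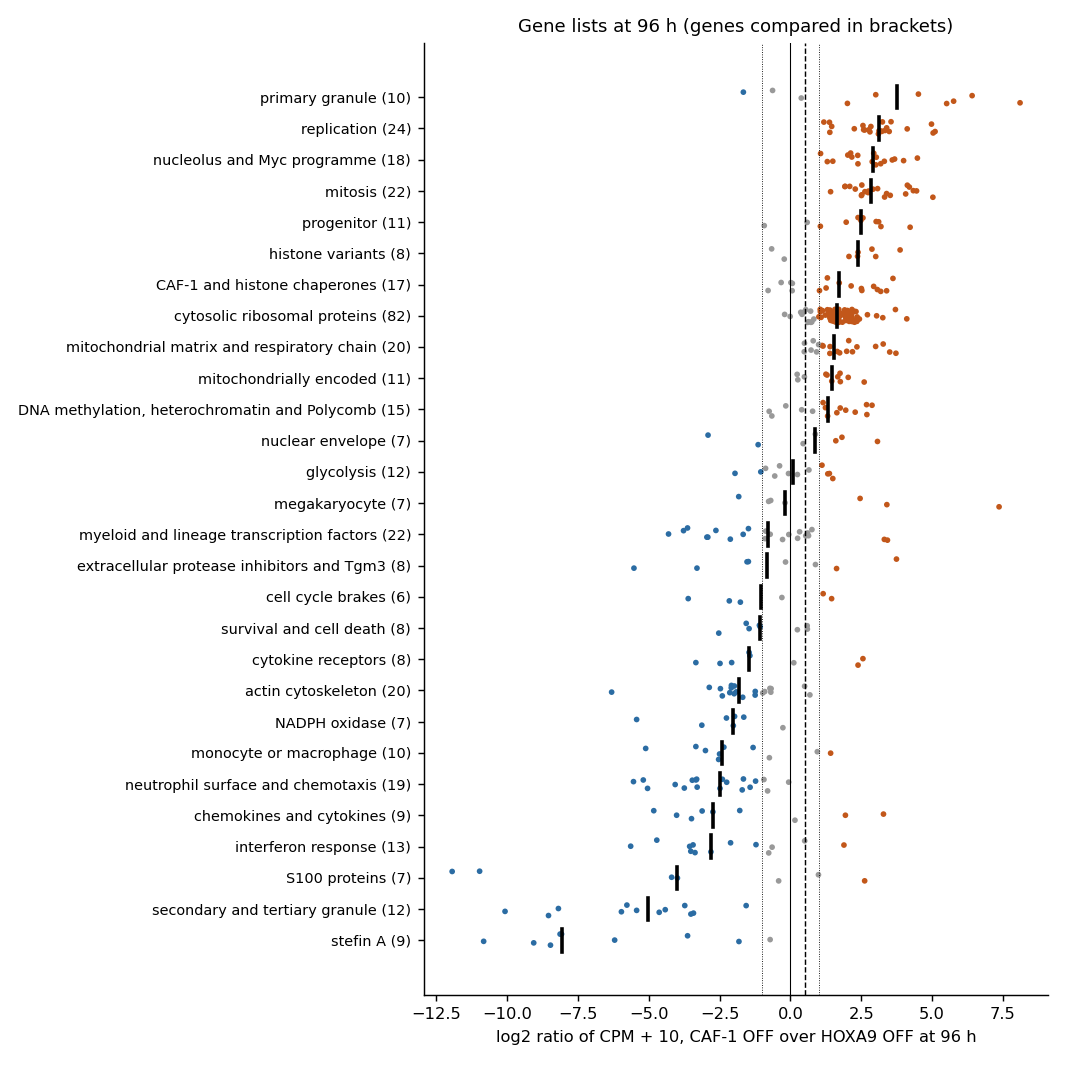
Log2 ratio of CAF-1 OFF over HOXA9 OFF at 96 h (10 CPM added) for each compared gene of 28 lists; dots are genes, black bars are list medians, the dashed line is the median of all genes (0.52) and dotted lines mark 2-fold. The medians run from -8.08 for stefin A to 3.76 for primary granule genes, and the replication and mitosis lists lie wholly above 2-fold.

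Of 22 transcription factors compared, 11 lay within 2-fold by CPM (against 46.6% of all genes). Higher in CAF-1 OFF were 2 (against 37.8%), and 9 in HOXA9 OFF (against 15.5%). In UMIs per cell, 7 and 6 of 18 were. Their median log2 ratio of -0.79 turned to 0.72 in UMIs per cell. Cebpe, which drives secondary granule genes, stood at 67.4, 510 and 785 CPM in CAF-1 OFF, against 82.3, 704 and 625 CPM in HOXA9 OFF. It rose 11.6-fold in CAF-1 OFF and 7.60-fold in HOXA9 OFF, and the 96 h levels lay within 2-fold, 1.26-fold apart (1.19 to 1.32) by CPM. In UMIs per cell, Cebpe stood at 4.65 versus 1.46. Cebpa, the factor of granulocyte commitment, stood at 68.2 and 41.4 CPM, and Elf1, an ETS factor, at 44.3 and 46.5 CPM, both within 2-fold. Gfi1, a repressor needed for neutrophil formation, stood at 27.8, 86.2 and 146 CPM in CAF-1 OFF, against 59.7, 28.1 and 4.54 CPM in HOXA9 OFF. It rose in CAF-1 OFF and fell in HOXA9 OFF, to 32.2-fold higher (19.7 to 56.6) in CAF-1 OFF. Spi1, which encodes PU.1, stood at 166, 230 and 323 CPM in CAF-1 OFF, against 154, 814 and 1049 CPM in HOXA9 OFF. The AP-1 genes Fos (11.5 against 415 CPM), Junb (26.7 against 446 CPM) and Jun (11.3 against 82.9 CPM) were higher in HOXA9 OFF, as was Id2, an inhibitor of helix-loop-helix factors (58.2 against 505 CPM).

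Secreted proteins showed both directions. Slpi, the secretory leukocyte protease inhibitor, stood at 141, 2016 and 4342 CPM in CAF-1 OFF, against 152, 1786 and 1398 CPM in HOXA9 OFF. The arms moved together to 48 h and parted after it, to 3.11-fold higher (3.01 to 3.20) in CAF-1 OFF. Tgm3, a transglutaminase that crosslinks proteins, stood at 0.949, 114 and 348 CPM in CAF-1 OFF, against 1.67, 5.27 and 16.7 CPM in HOXA9 OFF, 20.8-fold higher (16.0 to 27.4) in CAF-1 OFF. Anxa1, annexin A1, rose in both arms and reached 1114 CPM in CAF-1 OFF versus 3246 CPM in HOXA9 OFF. Of 9 chemokine and cytokine genes compared, 6 were higher in HOXA9 OFF (against 15.5% of all genes) and 2 in CAF-1 OFF (against 37.8%). In UMIs per cell, 3 and 3 of 7 were. Ccl3, a chemokine of activated myeloid cells, stood at 81.0 and 1016 CPM, Il1b at 9.27 and 119 CPM, and Ccl9 at 1947 and 500 CPM. Of 13 interferon-response genes compared, 9 were higher in HOXA9 OFF (against 15.5% of all genes) and 1, Ifitm1, in CAF-1 OFF (against 37.8%). In UMIs per cell, 6 and 2 of 11 were. Isg15, a ubiquitin-like protein, stood at 33.2 and 499 CPM, after 14.3 and 16.6 CPM at 48 h, so its gap opened in the second 48 h. Ifitm1, a membrane restriction factor, stood at 396, 845 and 2916 CPM in CAF-1 OFF, against 287, 552 and 780 CPM in HOXA9 OFF. Of 8 survival and cell death genes compared, 5 were higher in HOXA9 OFF (against 15.5% of all genes) and 0 in CAF-1 OFF (against 37.8%). Among the 5 was Mcl1, which holds off apoptosis (22.8 against 180 CPM). In UMIs per cell, however, 1 of 7 was higher in HOXA9 OFF and 3 in CAF-1 OFF.

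Some genes rose in both arms. At least 2-fold up from 0 h in both arms were 153 genes, of which 94 were higher in HOXA9 OFF at 96 h, 6 in CAF-1 OFF and 53 within 2-fold. With a rise of at least 4-fold in both arms and 96 h levels within 2-fold by CPM there were 9 genes. They were Cebpe, Lyz1 (113 against 213 CPM), Ifitm3 (2567 against 4378 CPM), Clec12a, Fcnb, Ms4a6d, Clec5a, Acpp and Serpinb2 (109 against 54.8 CPM). Lyz1 encodes a lysozyme with a near-identical copy, Lyz2, so its counts are uncertain. In UMIs per cell, 5 of the 9 (Cebpe, Serpinb2, Acpp, Clec5a and Ms4a6d) lay more than 2-fold apart, higher in CAF-1 OFF. Several of the 9 encode lectins and defence proteins of myeloid cells.

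To see whether averages stood for single cells, cells were thinned to 1000 UMIs, and the share of cells with at least 1 UMI of a gene was taken. Intervals are exact binomial 95% intervals over cells of 1 library, and cells are not replicates. Ctsg was found in 98.8% of CAF-1 OFF cells (97.8 to 99.4) and 0.136% of HOXA9 OFF cells, and in 100% and 0.331% unthinned. S100a8 was found in 1.77% of CAF-1 OFF cells (1.01 to 2.86) and 98.2% of HOXA9 OFF cells (97.3 to 98.8), and in 5.60% and 99.8% unthinned. The arms were thus near opposites for these genes, cell by cell. At 0 h, Ctsg was in 90.9% and 90.7% of cells and S100a8 in 0 cells of either arm, which allows shares of cells with a UMI at this depth of up to 0.471% and 0.634% (a floor of 3 cells, for counting error only, which does not limit the share expressing the gene). Cells with a UMI of Ltf, Camp or Ngp made up 0.552% of CAF-1 OFF and 79.3% of HOXA9 OFF. For Ltf alone, 0 of 905 CAF-1 OFF cells had a UMI, which allows a share of cells with a UMI at this depth of up to 0.331%.

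Pf4 was spread over most CAF-1 OFF cells. It was found in 78.8% of them (76.0 to 81.4) and in 0.204% of HOXA9 OFF cells (0.042 to 0.594), in 95.7% and 0.662% unthinned, and in 2.51% and 0.211% at 0 h. Itga2b was found in 7.40% of CAF-1 OFF cells and 0.271% of HOXA9 OFF cells, and in 33.4% and 0.728% unthinned. Cells with Pf4 or Itga2b that also held Cpa3 or Mcpt8 were 74.6% of CAF-1 OFF, and cells with Pf4 or Itga2b that also held a mitosis gene were 64.0%. On their own, Pf4 or Itga2b was in 80.1%, Cpa3 or Mcpt8 in 91.3% and a mitosis gene in 79.0%. The part of free RNA in these shares was not tested. At least 1 of Mpo, Prtn3, Ctsg and Elane was in 100% of CAF-1 OFF cells and 0.814% of HOXA9 OFF cells. Cd34 was in 46.3% and 3.05% of cells, and in 53.1% and 45.2% at 0 h. Unthinned, these shares were 92.8% and 6.16%, and 97.1% and 97.7% at 0 h. Cells with Cd34, Kit or Flt3 together with Slpi or Lcn2 made up 44.3% of CAF-1 OFF and 3.53% of HOXA9 OFF. A mitosis gene was found in 79.0% of CAF-1 OFF cells and 15.9% of HOXA9 OFF cells, near the 0 h shares (73.6% and 77.6%) in CAF-1 OFF.

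Graded genes lay between. Slpi was found in 85.1% of CAF-1 OFF cells and 65.6% of HOXA9 OFF cells, from 9.11% and 10.6% at 0 h. Lcn2 was found in 33.5% and 85.6%, and Cebpe in 52.6% and 37.4%. Unthinned, Lcn2 was in 78.6% and 92.0%, and Cebpe in 93.2% and 56.5%. Stfa1 was found in 14.9% of CAF-1 OFF cells, and its 1492 UMIs there came from 282 of 911 cells. Prg2 was found in 8.18% and 14.99% of cells (16.6% and 24.5% unthinned), so this eosinophil transcript was detected in a minority of either arm. Within a sum of counts, fewer cells that carry a transcript and less of it per cell cannot be told apart. These shares do not separate them either, since a cell with few copies of a transcript can be left without a UMI. In CAF-1 OFF, the share for Lcn2 was 33.5% thinned and 78.6% unthinned, and that for Cebpe 52.6% and 93.2%.

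**Figure D4:**
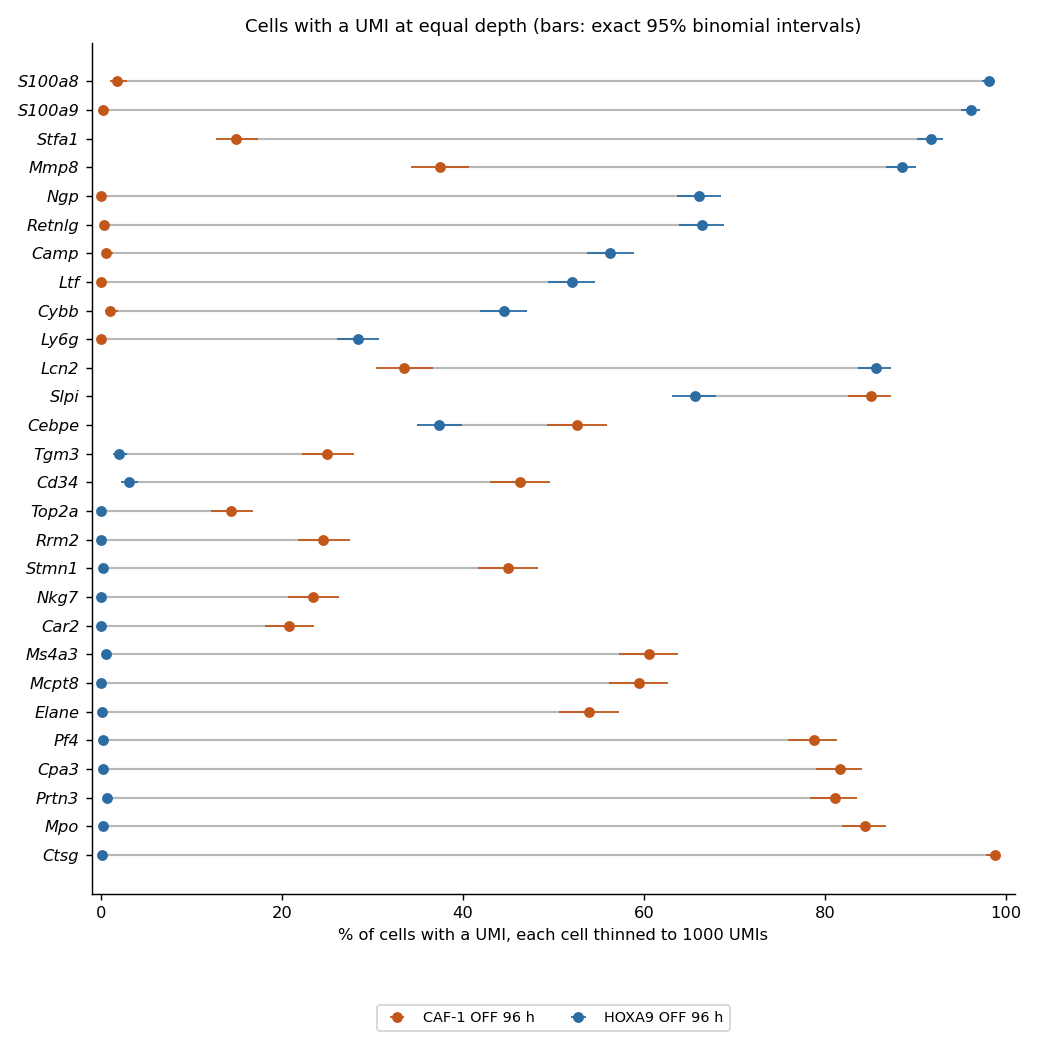
Share of cells (%) with at least 1 UMI of each of 28 genes at 96 h, each cell thinned to 1000 UMIs, in CAF-1 OFF (905 cells) and HOXA9 OFF (1474 cells); bars are exact 95% binomial intervals for counting error. Ctsg and Pf4 are in most CAF-1 OFF cells (98.8% and 78.8%) and S100a8 in most HOXA9 OFF cells (98.2%), whereas Slpi, Lcn2 and Cebpe are found in both.

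For the S100, stefin A, late granule and ribosomal protein lists, cells of HOXA9 OFF spread more widely than cells of CAF-1 OFF. Ribosomal protein genes took a median of 26.5% of a CAF-1 OFF cell's 1000 UMIs (10th to 90th percentile 22.8 to 30.2) and 5.7% in HOXA9 OFF (3.4 to 15.4). The S100 list took a median of 0.1% in CAF-1 OFF versus 15.6% in HOXA9 OFF (1.1 to 20.3). The highest CAF-1 OFF cell reached 0.8% on the S100 list, and 99 of 1474 HOXA9 OFF cells (6.72%) lay at or below it. The lowest CAF-1 OFF cell held 18.5% of ribosomal protein UMIs, and 96 HOXA9 OFF cells (6.51%) lay at or above it. At or below the highest CAF-1 OFF cell lay 192 HOXA9 OFF cells (13.03%) on the stefin A list and 378 (25.6%) on the secondary and tertiary granule list. At a limit of 5% on the S100 list, chosen after the values were seen, 240 HOXA9 OFF cells (16.3%) fell below and 1234 above. The cells below had a median of 3003.5 UMIs and 16.7% ribosomal protein UMIs, against 1968 UMIs and 5.2% in those above. At least 1% of UMIs from the eosinophil list were found in 56 of the 240 (23.3%) and in 0 of the 1234. In 31 CAF-1 OFF cells (3.43%) that list also reached 1%.

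**Figure D5:**
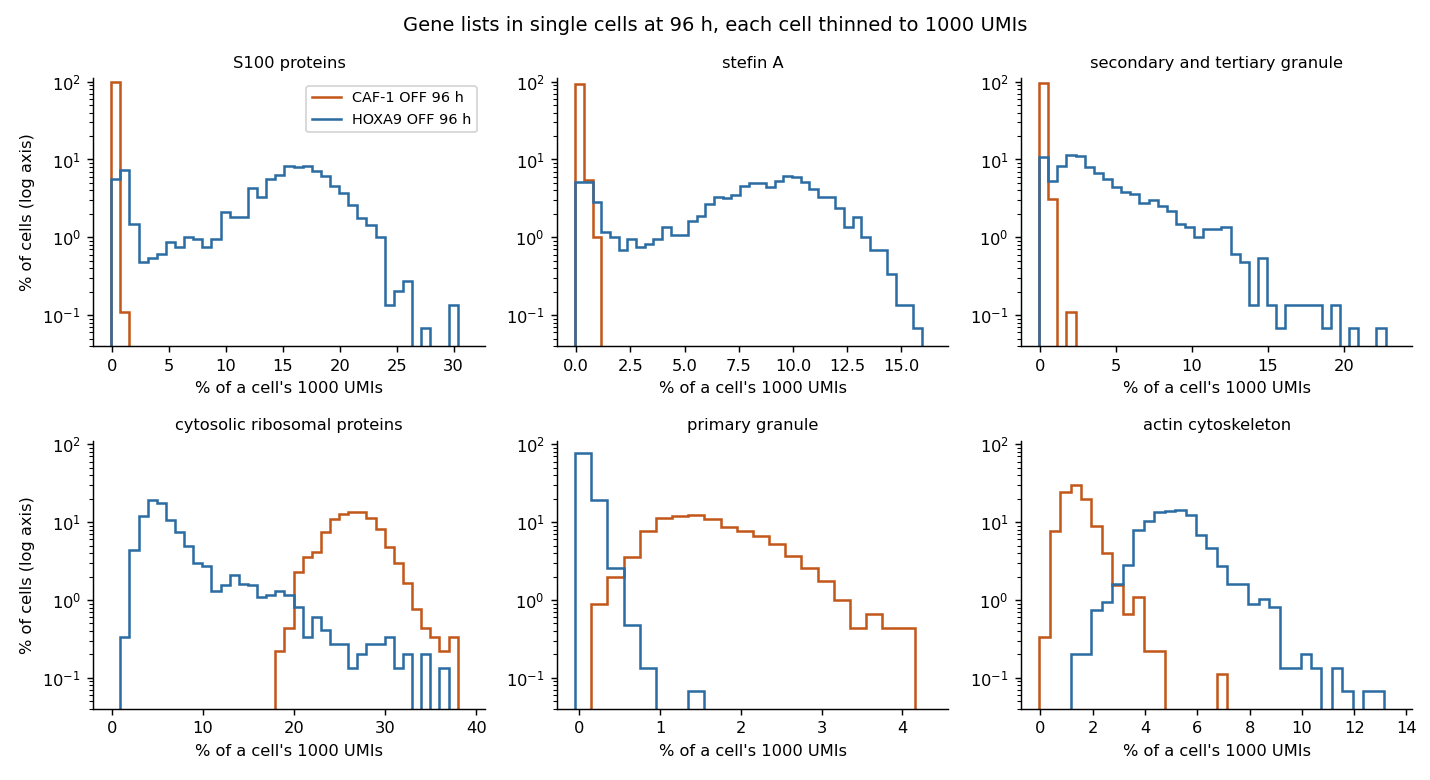
Distribution over cells of the share of a cell's 1000 UMIs (x axis, %) taken by 6 gene lists at 96 h, with the share of cells (%) on a log y axis, for CAF-1 OFF and HOXA9 OFF. On the S100, stefin A and late granule lists CAF-1 OFF cells stay near 0 while HOXA9 OFF cells run from there to a main peak (median 15.6% on the S100 list), and on the primary granule list CAF-1 OFF cells are the broader group.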

How the data were processed

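Single-cell libraries (10x Chromium 3′ chemistry, v2) of mouse iGMPs were analysed, 1 library per arm and time point. The authors sorted live cells, aligned reads to GRCm38 with Cell Ranger and deposited whole-number UMI counts, not normalized, for 7821 barcodes and 27998 genes. The submitters' processing notes list Cell Ranger 3.0.1, Scanpy 1.4.6 and Seurat 3.0.1. Barcodes held 500 to 20001 UMIs and were assigned to libraries by name.

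Barcodes with 200 to 6000 genes and at most 10% mitochondrial UMIs were kept, the limits of the study. UMIs were summed per library and scaled to CPM. The log2 ratio was taken after adding 10 CPM, which understates low genes, and at least 2-fold on that scale was the size called higher or lower. Genes in at least 3 cells, averaging at least 20 CPM across the 6 libraries and less than 2-fold apart at 0 h were compared. Fold intervals are exact conditional binomial intervals (95%), and share intervals Clopper-Pearson. They cover counting error only. Libraries at 0 were set to 3 counts, per library. Depth was 5394352 and 3524285 UMIs, so 3 counts are 0.556 and 0.851 CPM. Cells were thinned to 1000 UMIs for shares, which left out 6 and 36 cells. No test between groups was possible with 1 library a side. Named genes were the 15 highest and 15 lowest log2 ratios among genes with at least 50 CPM in a 96 h library, genes the study names, and the most abundant members of each list. The genes, lists and comparison were chosen with earlier results of these data known. Calculations were tested on simulated data.

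Alternatives changed the added CPM, the scaling, the barcode filter, doublets, cell weighting, the minimum level, the 0 h rule, the size called and the thinning. Of the genes compared, 4717 of 4746 matched RefSeq genes of GRCm38.p6, whose coordinates are given. Python 3.11.15, numpy 2.4.6, pandas 2.3.3, scipy 1.17.1, scanpy 1.11.5 (Scrublet) and, for TMM factors alone, edgeR 4.0.16 were used.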

Additional observations from a re-analysis of the deposited data

Results flagged for a closer look

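Genes that took opposite courses in the arms were flagged as differing between groups. At least 2-fold up from 0 to 96 h in CAF-1 OFF and at least 2-fold down in HOXA9 OFF were 24 genes, and 0 genes went the other way round. The difference was not tested, since each group is 1 library. Between the arms, the log2 changes from 0 to 96 h differed by 4.70 for Car2, by 5.06 for Nkg7 and by 5.02 for Ms4a3. Mzb1, a chaperone of antibody-secreting cells, went from 118 CPM at 0 h to 309 CPM at 96 h in CAF-1 OFF, but in HOXA9 OFF it went from 192 to 0.851 CPM. It was named after its values were seen. Gfi1, Gp9 and S100a1, described above, are among the 24.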

How the results depend on the processing

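The counts of genes past 2-fold depended most on scaling and on the added constant. Adding 50 CPM left 842 genes higher in CAF-1 OFF, 448 in HOXA9 OFF (65.3% higher in CAF-1 OFF), where the larger constant shrinks low genes by construction. With TMM factors 1111 genes were higher in HOXA9 OFF (54.7% higher in CAF-1 OFF), and with median-of-ratios factors 1201 (51.1%). Of the genes reported, 1343 and 1257 kept the side of CAF-1 OFF and 737 and 737 that of HOXA9 OFF under these. A total without mitochondrially encoded and ribosomal protein genes gave 485 genes higher in HOXA9 OFF (81.9%), and UMIs per cell gave 3422 and 183 (94.9%). Without a minimum level 1175 genes were higher in HOXA9 OFF (66.7%), the share was 62.7% with the minimum set on the 96 h libraries and 68.0% at 1.5-fold, and at 4-fold 665 and 280 genes remained. Adding 1 CPM, the barcode filter, doublet removal, equal weighting of cells, the rule on 0 h differences and ratios to 0 h changed neither count by more than 1.5 times. In UMIs per cell, list medians past 2-fold changed sign to 0.81 for cell cycle brakes, 0.81 for chemokines and cytokines, 0.039 for survival and cell death and 0.48 for eosinophil genes (2 genes compared by CPM, 1 there). Medians nearer to 0, such as those of transcription factors, glycolysis and megakaryocyte genes, changed sign under some scalings too. Counted once for each list or gene and each alternative, other list medians moved 171 times and did not 261 times, and log2 ratios of single genes moved by more than counting error 273 times and did not 310 times. No paired analysis was possible because each group holds 1 library. No library could be left out for the same reason. Depth limits HOXA9 OFF more: 1 UMI is a larger share of its total, and its cells hold fewer UMIs.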
